A study of Rattus norvegicus with 12 samples.

Results

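The integrated stress response and the supply of amino acids were described through 49 listed genes, read from the deposited count table by gene symbol. All 49 were found once each among the 30454 genes of the table. They comprised 17 regulators, 12 enzymes of amino acid metabolism, 8 amino acid transporters and 12 cytosolic tRNA synthetases. Of these, 46 had enough counts to be tested. Their summed level was 7558 to 8106 CPM (counts scaled to library size) in rTMS-MSCs, 7482 to 7701 CPM in MSCs and 9094 to 10020 CPM in OGDR, so no treated library reached an OGDR one.

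Bulk RNA sequencing covered 12 libraries of rat cells labelled PC12, a line from an adrenal chromaffin tumour, in 3 groups of 4. Every group carried the same injury, a spell without oxygen and glucose followed by reoxygenation (OGDR). The rTMS-MSCs group received mesenchymal stem cells (MSCs) and repetitive transcranial magnetic stimulation (rTMS) at 10 Hz, the MSCs group received the stem cells alone, and the OGDR group received neither. The series text gives 48 h after treatment as the time for the treated groups. No source used here gives the species of the stem cells, how they met the PC12 cells or whether samples of 1 group came from separate cultures, and p-values therefore reflect no more than the spread among these samples. No group without deprivation was analysed here.

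Each library held 18246250 to 20471838 counts in genes, at which 1 CPM is about 20 counts. The edgeR quasi-likelihood test covered 13692 genes, and the words rose, fell and changed are used where the Benjamini-Hochberg adjusted p over all of them was under 0.05. A change written with ± is a log2 fold change with its standard error. CPM values are not scaled for gene length, so levels are compared between libraries and not between genes. Markers of several cell types were read, and some moved with the groups. Of 14 stromal markers 11 were tested, of which 7 rose, 0 fell and 4 did not pass in MSCs against OGDR, Col1a1 and Pdgfra among the 4. The sum of the 14 was 3985 to 4197 CPM in rTMS-MSCs, 3960 to 4159 CPM in MSCs and 2340 to 2476 CPM in OGDR. Most of it was Col6a1 (mean 1160 CPM in MSCs and 564 CPM in OGDR), Col6a2 (1360 and 607 CPM) and Fstl1 (1140 and 888 CPM). Of the 14, 5 averaged under 1 CPM, Dcn and Thy1 among them, and Lum had no count. Of 10 Schwann and glial markers 8 were tested, of which 5 rose in MSCs against OGDR, with sums of 1055 to 1166 CPM in rTMS-MSCs, 1077 to 1150 CPM in MSCs and 911.6 to 993.3 CPM in OGDR. Of the 10, 7 averaged 10 CPM or more and 2 under 1 CPM. In OGDR, which received no stem cells, Sox10 averaged 362 CPM, S100b 241 CPM and Ngfr 158 CPM, and the stromal marker Pdgfra 286 CPM. Of 13 chromaffin markers, 10 averaged under 1 CPM and Ddc had no count, which goes against the label of the cells. Of the 7 tested in MSCs against OGDR, Th and Cyb561 rose and Scg2 fell. The sum of the 13, most of it Scg2, was 211.4 to 226.9 CPM in rTMS-MSCs, 201 to 245.7 CPM in MSCs and 282.9 to 351.3 CPM in OGDR. Scg2 alone had 197 to 211 CPM in rTMS-MSCs, 185 to 230 CPM in MSCs and 270 to 336 CPM in OGDR. Of 8 macrophage markers, 6 averaged under 1 CPM, Adgre1 had no count, and the sum was 64.59 to 78.08 CPM in rTMS-MSCs, 51.72 to 66.97 CPM in MSCs and 51.98 to 60 CPM in OGDR. Whether these markers come from the cells labelled PC12 or from other cells was not tested, nor was their part in the results. In bulk RNA fewer cells of a type and less RNA per cell cannot be told apart.

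Cells that meet a shortage of amino acids, misfolded protein in the endoplasmic reticulum, viral double-stranded RNA or a lack of haem phosphorylate the initiation factor eIF2 through one of a family of kinases. General translation then drops while the messenger of the transcription factor ATF4 is translated better. ATF4, usually paired with a C/EBP protein, switches on genes that import and make amino acids, charge tRNAs and, under lasting stress, promote cell death, and it binds a composite element with an ATF part and a C/EBP part. In ischaemic and reoxygenated nervous tissue this response is known as a part of the reaction to injury.

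The composite element was looked for in the RefSeq promoters of the members, 250 bases before to 50 bases after each annotated start in the rat build GRCr8. An entry existed for 44 of the 49 members. The letters TGATGCAA, searched on both strands, stood in 12 of these 44 (27.3%), against 266 of 33469 promoters of the same length in the RefSeq table (0.795%). The looser form TGATGNAA, which includes every match of TGATGCAA, stood in 14 of the 44 (31.8%), against 3.98% of all promoters. The cAMP response element TGACGTCA was found in 1 member promoter (2.27%), that of Ppp1r15a, and in 1.83% of all promoters. The endoplasmic reticulum stress element (ERSE), searched on both strands, was found in 0 of the 44 and in 0.0657% of all. Members were counted by gene and all promoters by entry, with genes not tested among them. Over the 9730 tested genes with an entry, counted by gene, TGATGCAA stood in 0.627% and TGATGNAA in 2.15%. In the same genes TGACGTCA stood in 3.33%, above the share of the members, and ERSE in 0.164%. By class, TGATGNAA stood in 7 of 11 synthetase promoters, 4 of 16 regulator promoters, 2 of 6 transporter promoters and 1 of 11 enzyme promoters. The stretches around 14 of the 15 matches are shown because the letters recur in genes of all 4 classes. Each is read so that the element (capitals) runs from the ATF part to the C/EBP part, with the strand of that reading.
Chac1, chr3:126795954-126795981, minus strand: ctagcaggagTGATGCAAcggcggagaa
Nupr1, chr1:190645939-190645966, plus strand: aagccctgtcTGATGCAAtctggccttt
Ppp1r15b, chr13:47129812-47129839, plus strand: taggtccggcTGATGCAActtgccgcgt
Trib3, chr3:161275537-161275564, plus strand: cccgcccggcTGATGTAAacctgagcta
Pycr1, chr10:106420926-106420953, minus strand: gtcctgtgtaTGATGCAAtgtacaaggc
Slc1a4, chr14:98761780-98761807, plus strand: gctggctggaTGATGCAAcgctggaggc
Slc7a1, chr12:11664448-11664475, plus strand: ggcgcgcggcTGATGAAAccggctcgga
Aars1, chr19:55908481-55908508, minus strand: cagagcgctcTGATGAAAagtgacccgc
Cars1, chr1:208225335-208225362, plus strand: ttccagaatcTGATGCAAccgcggcgcc
Iars1, chr17:15193659-15193686, plus strand: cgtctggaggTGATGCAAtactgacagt
Mars1, chr7:65023753-65023780, plus strand: gagcccacgcTGATGCAAccggaacggg
Nars1, chr18:60275779-60275806, minus strand: ctaggtgatcTGATGCAAcgcttcagtc
Tars1, chr2:62114812-62114839, plus strand: gctaaccagcTGATGCAAcgggacgcca
Yars1, chr5:146820191-146820212, plus strand: cgagctcagcTGATGCAAcctg
The 250 bases before the start follow for Chac1 and Trib3, the regulators that fell most in MSCs against OGDR, and for the proline enzyme Pycr1. They follow also for the serine enzyme Psat1, which rose in that comparison and held no match. Of the 28 tested members with an entry and no match, 14 fell there, Asns and Ddit3 among them, and 2 rose. Here each sequence is on the strand of its gene, and capitals mark a match on either strand.
Chac1, chr3:126795881-126796130, plus strand: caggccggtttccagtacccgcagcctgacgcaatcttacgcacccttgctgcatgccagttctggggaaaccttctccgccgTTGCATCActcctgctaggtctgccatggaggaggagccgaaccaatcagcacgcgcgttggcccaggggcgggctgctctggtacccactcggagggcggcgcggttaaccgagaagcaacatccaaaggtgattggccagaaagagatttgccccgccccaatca
Trib3, chr3:161275534-161275783, minus strand: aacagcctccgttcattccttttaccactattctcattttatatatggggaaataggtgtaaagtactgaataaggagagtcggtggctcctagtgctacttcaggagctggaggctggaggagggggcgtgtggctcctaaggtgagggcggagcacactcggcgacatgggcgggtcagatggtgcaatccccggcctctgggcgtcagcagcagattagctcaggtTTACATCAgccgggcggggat
Pycr1, chr10:106420813-106421062, minus strand: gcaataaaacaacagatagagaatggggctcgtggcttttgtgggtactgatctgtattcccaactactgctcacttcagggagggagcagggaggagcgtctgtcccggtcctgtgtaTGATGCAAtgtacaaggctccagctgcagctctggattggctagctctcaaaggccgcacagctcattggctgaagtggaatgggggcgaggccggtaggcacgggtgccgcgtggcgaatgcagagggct
Psat1, chr1:222645409-222645658, minus strand: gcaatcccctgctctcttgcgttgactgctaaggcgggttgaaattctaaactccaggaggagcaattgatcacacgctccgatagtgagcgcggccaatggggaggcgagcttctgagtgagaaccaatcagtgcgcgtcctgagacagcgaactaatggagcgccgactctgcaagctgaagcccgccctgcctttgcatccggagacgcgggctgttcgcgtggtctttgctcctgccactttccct
In Chac1 the element began 167 bases before the start and in Trib3 21 bases before it, both on the strand opposite to the gene. Most synthetase matches lay close to the start, from 27 bases before it in Tars1 to 39 after it in Yars1. A match is a description of letters and not a site.

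**Figure D1:**
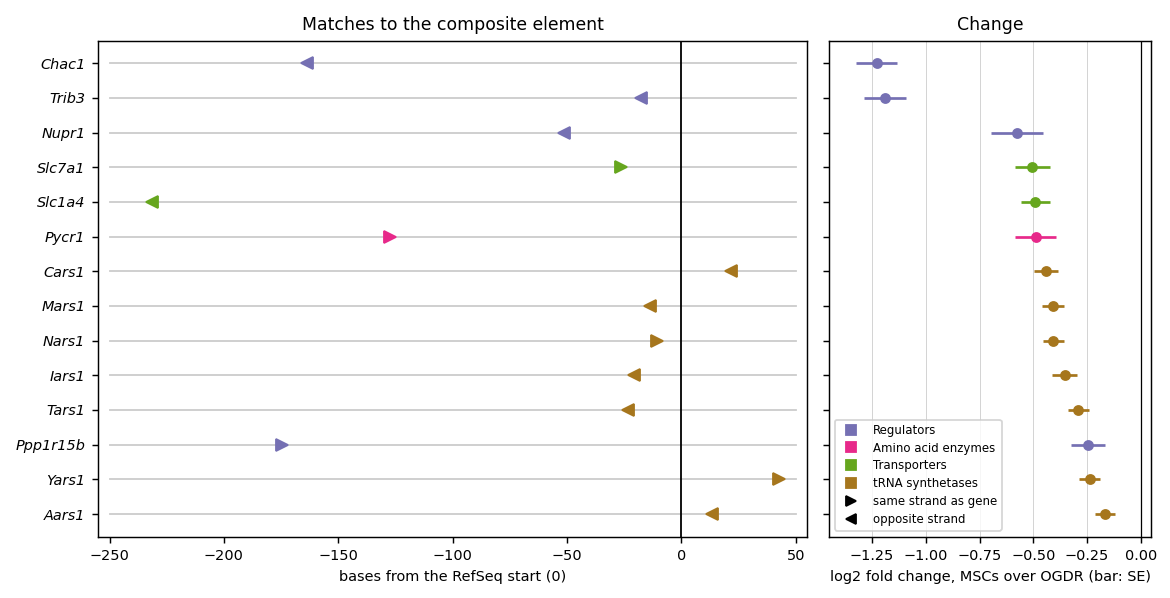
Left, position of each match to TGATGNAA in bases from the RefSeq start for the 14 members that hold one (14 of 15 matches), with the arrow giving the strand relative to the gene. Right, log2 fold change of the same gene in MSCs over OGDR with its standard error. All 14 points lie left of 0, from -1.23 in Chac1 to -0.17 in Aars1.

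Adding stem cells to deprived cells was the question of the first comparison, MSCs against OGDR. Most of the listed members were lower in MSCs, while genes of the same pathways outside the members, given below, were mixed. Of the 46 tested, 34 changed (73.9%), against 20.2% of all tested genes. Of these 32 fell and 2 rose, where 8.63% of all tested genes fell and 11.6% rose. The median log2 fold change of the 46 was -0.366, against -0.002 over all tested genes. The members were chosen with earlier results of these data known, so their difference from all tested genes is a description and not a test. All 12 synthetases fell, as did 9 of 16 regulators, 7 of 11 enzymes and 4 of 7 transporters. The values of MSCs and OGDR did not overlap in 32 of the 46, against 24.7% of all tested genes. OGDR replicate 4 stood high, being the highest OGDR library for 30 of the 46 members and for 26.8% of all tested genes, and without it 30 members changed. The share of counts in genes of the mitochondrial genome moved with the comparison too, at 2.56 to 3.05% in MSCs and 3.29 to 3.73% in OGDR, with 2.83 to 3.29% in rTMS-MSCs, and its part in the result was not tested.

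**Figure D2:**
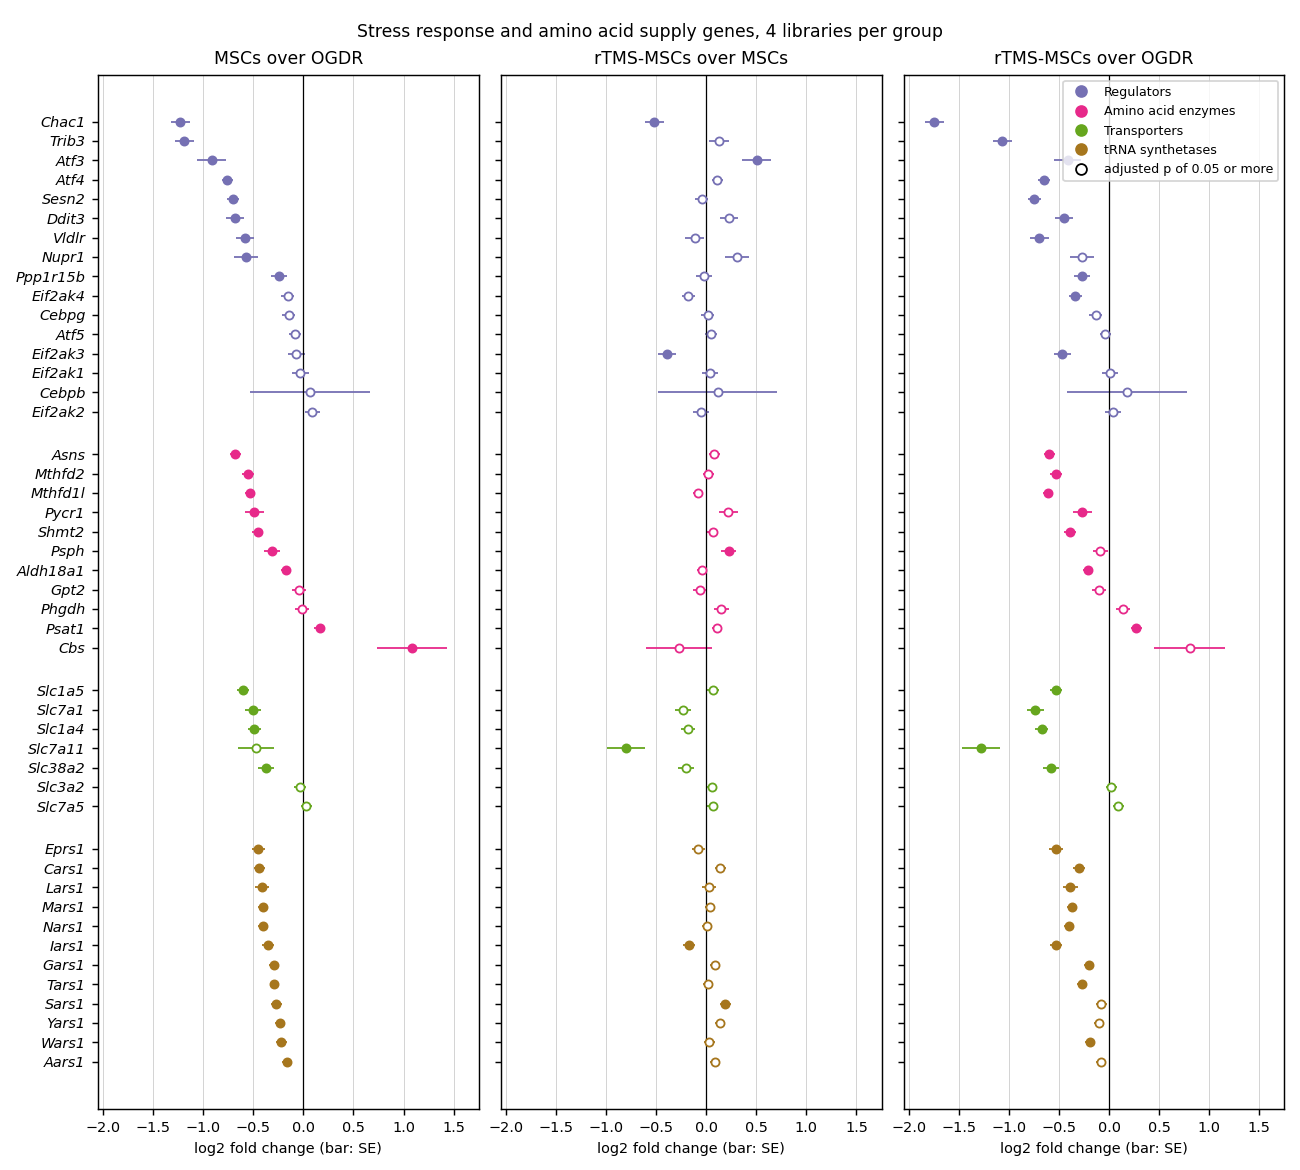
Log2 fold change of the 46 tested members, with standard errors, in MSCs over OGDR, rTMS-MSCs over MSCs and rTMS-MSCs over OGDR (4 libraries per group). Filled points have an adjusted p under 0.05. In the left panel 32 filled points lie below 0 and 2 above, in the middle panel 4 below and 3 above, and in the right panel 30 below and 1 above.

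Among the regulators, Atf4 (ENSRNOG00000017801) came first as the central factor. In replicates 1 to 4, in this order here and below, Atf4 stood at 386, 394, 403 and 368 CPM in rTMS-MSCs, 356, 364, 344 and 373 CPM in MSCs and 549, 597, 601 and 681 CPM in OGDR. Every treated library lay under every OGDR library, and rTMS-MSCs and MSCs overlapped. Atf4 fell in MSCs against OGDR (log2 fold change -0.76 ± 0.0588, adjusted p = 5.06e-09). Ddit3, which encodes the death-promoting factor CHOP, stood at 73.0, 81.0, 94.2 and 70.8 CPM in rTMS-MSCs, 68.6, 73.4, 58.5 and 71.4 CPM in MSCs and 98.8, 114, 105 and 119 CPM in OGDR. Ddit3 fell by 0.68 on the log2 scale (adjusted p = 8.25e-06), with no overlap between MSCs and OGDR. Atf3, a stress-induced repressor of the same protein family, stood at 8.37, 8.16, 8 and 7.37 CPM in rTMS-MSCs, 5.24, 5.08, 5.31 and 6.91 CPM in MSCs and 9.01, 9.86, 10.9 and 12.8 CPM in OGDR. Here the 3 groups stood apart, with OGDR highest and MSCs lowest, and the change in MSCs against OGDR was -0.92 ± 0.142 (adjusted p = 6.45e-05).

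The largest falls among the members were in a pair of targets of ATF4 and CHOP. Chac1 (ENSRNOG00000014387), which breaks down glutathione, stood at 23.6, 20.0, 22.8 and 18.5 CPM in rTMS-MSCs, 34.5, 29.4, 29.5 and 28.1 CPM in MSCs and 67.4, 72.1, 64.2 and 81.1 CPM in OGDR. All 3 groups stood apart, OGDR highest and rTMS-MSCs lowest. Chac1 was 0.427 times its OGDR level in MSCs (log2 fold change -1.23 ± 0.0942, adjusted p = 4.49e-09). Trib3 (ENSRNOG00000007319), a pseudokinase that restrains ATF4 and AKT, stood at 49.7, 59.7, 66.3 and 52.2 CPM in rTMS-MSCs, 51.8, 53.2, 50.6 and 53.6 CPM in MSCs and 101, 120, 111 and 145 CPM in OGDR. The treated groups overlapped with each other and not with OGDR, whose libraries spread from 101 to 145 CPM. Trib3 was 0.439 times its OGDR level in MSCs (log2 fold change -1.19 ± 0.0981, adjusted p = 1.28e-08). Sesn2, a leucine sensor that holds back mTORC1, stood at 71.7, 69.6, 65.6 and 65.4 CPM in rTMS-MSCs, 69.7, 73.3, 68.8 and 69.3 CPM in MSCs and 104, 118, 111 and 124 CPM in OGDR. It fell by 0.70 on the log2 scale (adjusted p = 4.99e-08), and no treated library reached an OGDR one.

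Further regulators that fell in MSCs against OGDR were Vldlr, a lipoprotein receptor whose gene is an ATF4 target (-0.58 ± 0.0933), the stress-induced chromatin protein Nupr1 (-0.57 ± 0.121) and the phosphatase subunit Ppp1r15b, which reverses eIF2 phosphorylation (-0.25 ± 0.0803). For Ppp1r15b the groups overlapped, adjusted p was 0.0345, and the call was lost on leaving out any 1 of 5 libraries (OGDR 3, OGDR 4, MSCs 1, MSCs 2 or MSCs 4). Of the eIF2 kinases, none of Eif2ak1 (sensing haem), Eif2ak2 (double-stranded RNA), Eif2ak3 (the endoplasmic reticulum) and Eif2ak4 (uncharged tRNA) passed in this comparison. Their adjusted p-values were 0.844, 0.467, 0.635 and 0.0866 in the QL test. The other bZIP factors Atf5 and Cebpg did not pass either, at 201 ± 9.43 CPM in MSCs and 214 ± 9.54 CPM in OGDR for Atf5, and at 82.9 ± 5.47 CPM in MSCs and 91.9 ± 6.68 CPM in OGDR for Cebpg (mean ± SD, n = 4).

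Cebpb, a partner of ATF4 at the composite element, spread within its groups. It stood at 10.1, 19.3, 96.1 and 65.9 CPM in rTMS-MSCs, 69.9, 68.4, 28.5 and 9.46 CPM in MSCs and 69.8, 23.1, 65.5 and 10.1 CPM in OGDR. Libraries near 10 and libraries near 70 CPM occurred within every group, so that no group stood apart. Its pooled SD within groups was 1.4 log2 units, the highest of 9507 genes of at least 10 CPM, whose median was 0.117. Ppp1r15a, the inducible eIF2 phosphatase subunit GADD34, is listed at 0 counts in all 12 libraries. A count of 0 allows up to 3 counts in 235439302, or 0.0127 CPM, for counting error only. Whether the annotation or the counting missed reads of Ppp1r15a was not tested, and the limit holds for counted reads, not for the RNA of the gene.

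**Figure D3:**
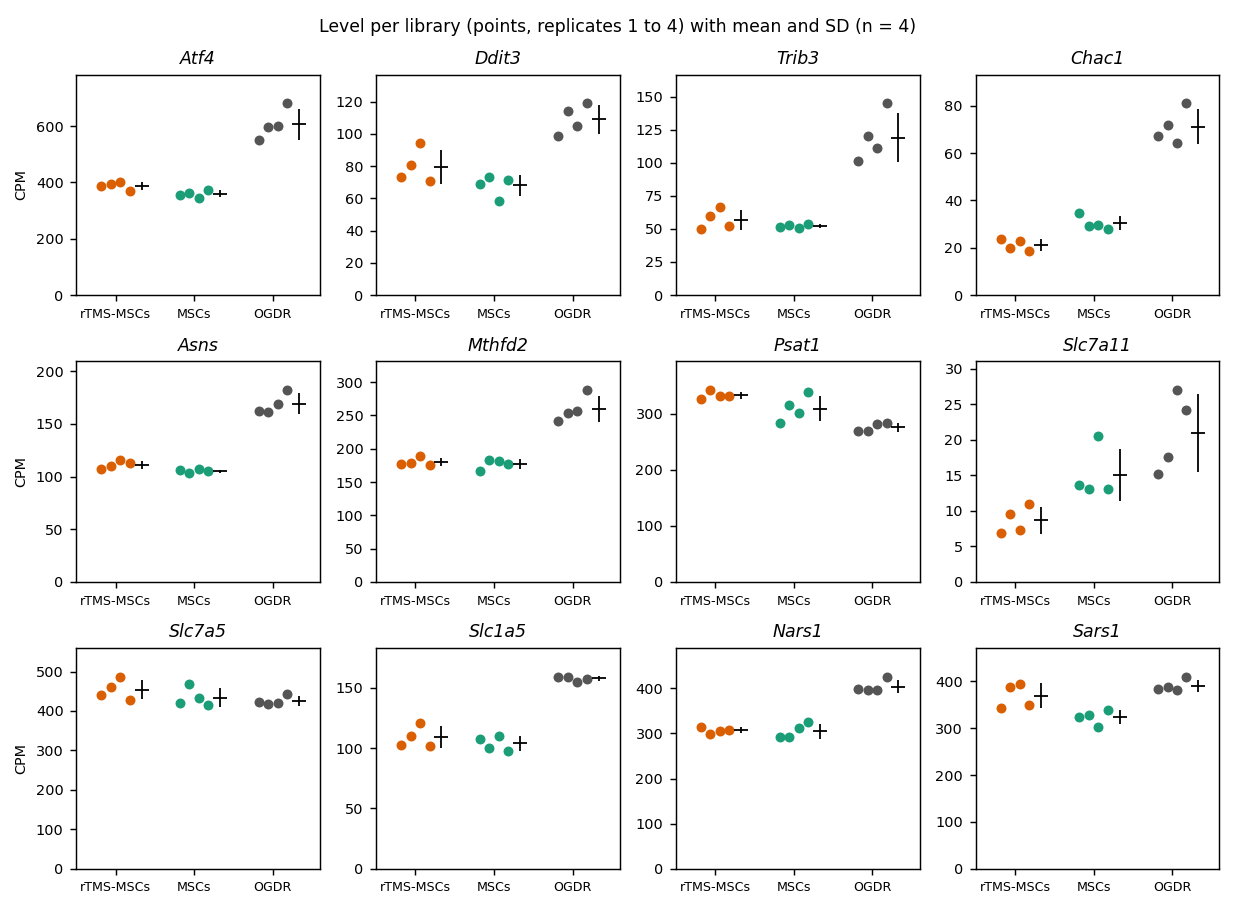
CPM of 12 members in each library (points, replicates 1 to 4 from left to right) with the mean and SD of each group (n = 4), on axes that start at 0. The rTMS-MSCs and MSCs points of Atf4, Ddit3, Trib3, Chac1, Asns, Mthfd2, Slc1a5 and Nars1 lie under all OGDR points, while Slc7a5 overlaps across groups and Psat1 is highest in rTMS-MSCs on average.

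Among the enzymes, Asns (ENSRNOG00000007546), which makes asparagine and is a classic ATF4 target, stood at 107, 110, 116 and 113 CPM in rTMS-MSCs, 106, 103, 107 and 105 CPM in MSCs and 162, 161, 169 and 182 CPM in OGDR. The treated libraries kept within 103 to 116 CPM and lay well under every OGDR library. Asns fell in MSCs against OGDR (log2 fold change -0.68 ± 0.055, adjusted p = 9.75e-09). The 3 mitochondrial enzymes of one-carbon metabolism among the members fell. Mthfd2, which oxidises folate-bound carbon, stood at 177, 178, 189 and 175 CPM in rTMS-MSCs, 167, 183, 181 and 177 CPM in MSCs and 241, 254, 256 and 288 CPM in OGDR, a change of -0.55 ± 0.0577. Mthfd1l, which releases formate from mitochondria, stood at 116, 123, 124 and 127 CPM in rTMS-MSCs, 129, 133, 131 and 126 CPM in MSCs and 181, 187, 190 and 191 CPM in OGDR, a change of -0.53 ± 0.0506. Shmt2, which turns serine into glycine in mitochondria, stood at 185, 193, 221 and 201 CPM in rTMS-MSCs, 185, 202, 191 and 188 CPM in MSCs and 262, 270, 256 and 262 CPM in OGDR, a change of -0.45 ± 0.0561. For all 3 the treated groups overlapped with each other and not with OGDR, and adjusted p-values in MSCs against OGDR were 4.02e-07, 1.15e-07 and 3.82e-06 in this order.

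Enzymes of proline synthesis fell too. Pycr1, which makes proline in its final step, stood at 23.4, 25.5, 32.8 and 27.7 CPM in rTMS-MSCs, 21.8, 23.7, 24.5 and 23.9 CPM in MSCs and 34.4, 32.6, 32.4 and 32.3 CPM in OGDR. MSCs lay under all OGDR libraries, while rTMS-MSCs 3 reached into the OGDR range. Pycr1 changed by -0.49 ± 0.0941 in MSCs (adjusted p = 0.00067) and Aldh18a1, which starts the same route, by -0.18 ± 0.0499 (adjusted p = 0.0156). Aldh18a1 did not pass without OGDR 1 or without OGDR 4.

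In the phosphorylated route of serine synthesis 1 gene rose and 1 fell. Phgdh, the entry enzyme, did not pass (264 ± 4.78 CPM in MSCs and 267 ± 11.4 CPM in OGDR, adjusted p = 0.9). Psat1, the next step, stood at 327, 342, 332 and 331 CPM in rTMS-MSCs, 284, 315, 301 and 338 CPM in MSCs and 269, 269, 282 and 284 CPM in OGDR. It rose in MSCs against OGDR by 0.16 ± 0.0538 (adjusted p = 0.0349), although MSCs 1 lay at the level of OGDR 4. Psat1 did not pass without any 1 of 5 libraries (OGDR 1, OGDR 2, OGDR 3, MSCs 2 or MSCs 4). Psph, the last step, stood at 75.6, 79.7, 95.8 and 75.4 CPM in rTMS-MSCs, 63.6, 71.1, 70.7 and 74.3 CPM in MSCs and 83.6, 89.5, 82.7 and 91.7 CPM in OGDR, and fell in MSCs by 0.31 (adjusted p = 0.00544). Gpt2, an alanine aminotransferase, did not pass (adjusted p = 0.749). Cbs, which begins the conversion of homocysteine to cysteine, rose by 1.08 ± 0.35 (adjusted p = 0.0326) but was scarce, at 1.44, 1.16, 1.27 and 0.652 CPM in rTMS-MSCs, 1.36, 1.59, 1.62 and 0.903 CPM in MSCs and 0.487, 0.838, 0.579 and 0.675 CPM in OGDR. Its call was lost under 8 of 19 alternatives, 6 of them the removal of 1 library (OGDR 1, OGDR 3, OGDR 4, MSCs 1, MSCs 2 or MSCs 3). Cth, the following step, had 27 counts over the 12 libraries and was not tested.

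Of the 7 tested transporters 4 fell in MSCs against OGDR, and 0 rose. Slc1a5, a carrier of glutamine, stood at 103, 110, 121 and 102 CPM in rTMS-MSCs, 108, 100, 110 and 97.8 CPM in MSCs and 159, 159, 155 and 157 CPM in OGDR. Slc1a4, a carrier of alanine, serine and cysteine, stood at 91.9, 88.7, 79.3 and 96.7 CPM in rTMS-MSCs, 108, 103, 101 and 93.1 CPM in MSCs and 132, 142, 144 and 151 CPM in OGDR. In both genes every treated library lay under every OGDR library, and the changes were -0.60 ± 0.062 and -0.49 ± 0.0673 (adjusted p = 3.44e-07 and 1.49e-05). Slc7a1, which imports arginine and lysine, stood at 107, 109, 97.0 and 118 CPM in rTMS-MSCs, 122, 116, 143 and 126 CPM in MSCs and 155, 173, 191 and 201 CPM in OGDR. Slc38a2, a carrier of small neutral amino acids that responds to amino acid shortage, stood at 161, 143, 125 and 161 CPM in rTMS-MSCs, 162, 155, 186 and 178 CPM in MSCs and 209, 209, 217 and 249 CPM in OGDR. Again treated and OGDR libraries did not overlap, and the changes in MSCs were -0.50 ± 0.0806 and -0.38 ± 0.0803 (adjusted p = 9.39e-05 and 0.00174).

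The remaining tested transporters belong to heteromeric exchangers, and none of them passed in MSCs against OGDR. Slc7a5, the light chain that exchanges leucine, averaged 454 ± 24.6 CPM in rTMS-MSCs, 434 ± 24.3 CPM in MSCs and 425 ± 11.9 CPM in OGDR (SD, n = 4), and did not pass in any comparison. Slc3a2, the heavy chain it shares with Slc7a11, averaged 466 ± 26.1 CPM in rTMS-MSCs, 448 ± 13.4 CPM in MSCs and 458 ± 35.9 CPM in OGDR and did not pass either. Slc7a11, the light chain that brings in cystine for glutathione, stood at 6.92, 9.53, 7.26 and 10.9 CPM in rTMS-MSCs, 13.7, 13.1, 20.6 and 13.1 CPM in MSCs and 15.2, 17.6, 27.0 and 24.2 CPM in OGDR. MSCs 3, at 20.6 CPM, lay inside the OGDR range, and the change of -0.47 ± 0.182 in MSCs against OGDR did not pass (adjusted p = 0.074). Without MSCs 3 it passed (-0.66, adjusted p = 0.0138), and it also passed without OGDR 1 or without rTMS-MSCs 3. Slc7a3, another cationic carrier, had 41 counts in all and was not tested.

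The tRNA synthetases, which join amino acids to their tRNAs, were the class with the narrowest range, from -0.45 to -0.17. Nars1, for asparagine, stood at 315, 298, 305 and 308 CPM in rTMS-MSCs, 291, 292, 311 and 325 CPM in MSCs and 398, 397, 396 and 425 CPM in OGDR. Mars1, for methionine, stood at 213, 220, 229 and 210 CPM in rTMS-MSCs, 202, 218, 215 and 217 CPM in MSCs and 274, 276, 281 and 299 CPM in OGDR. Neither gene had a treated library within the OGDR range, and the changes in MSCs were -0.41 ± 0.0503 and -0.41 ± 0.0512. Cars1, for cysteine, stood at 158, 168, 169 and 158 CPM in rTMS-MSCs, 141, 149, 143 and 159 CPM in MSCs and 187, 208, 200 and 209 CPM in OGDR. Eprs1, for glutamate and proline, stood at 441, 458, 425 and 483 CPM in rTMS-MSCs, 466, 436, 499 and 507 CPM in MSCs and 598, 604, 688 and 720 CPM in OGDR. In these the treated and OGDR libraries did not overlap either, with changes of -0.44 ± 0.0559 and -0.45 ± 0.0654. Adjusted p-values of the 4 were 3.89e-06, 4.92e-06, 5.21e-06 and 2.84e-05 in the order named. The other 8 fell by 0.17 (Aars1, for alanine) to 0.42 (Lars1, for leucine), with adjusted p-values of 0.000138 to 0.0143, and MSCs and OGDR did not overlap in any of the 12. Aars1 did not pass without OGDR 4 (adjusted p = 0.0564).

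**Figure D4:**
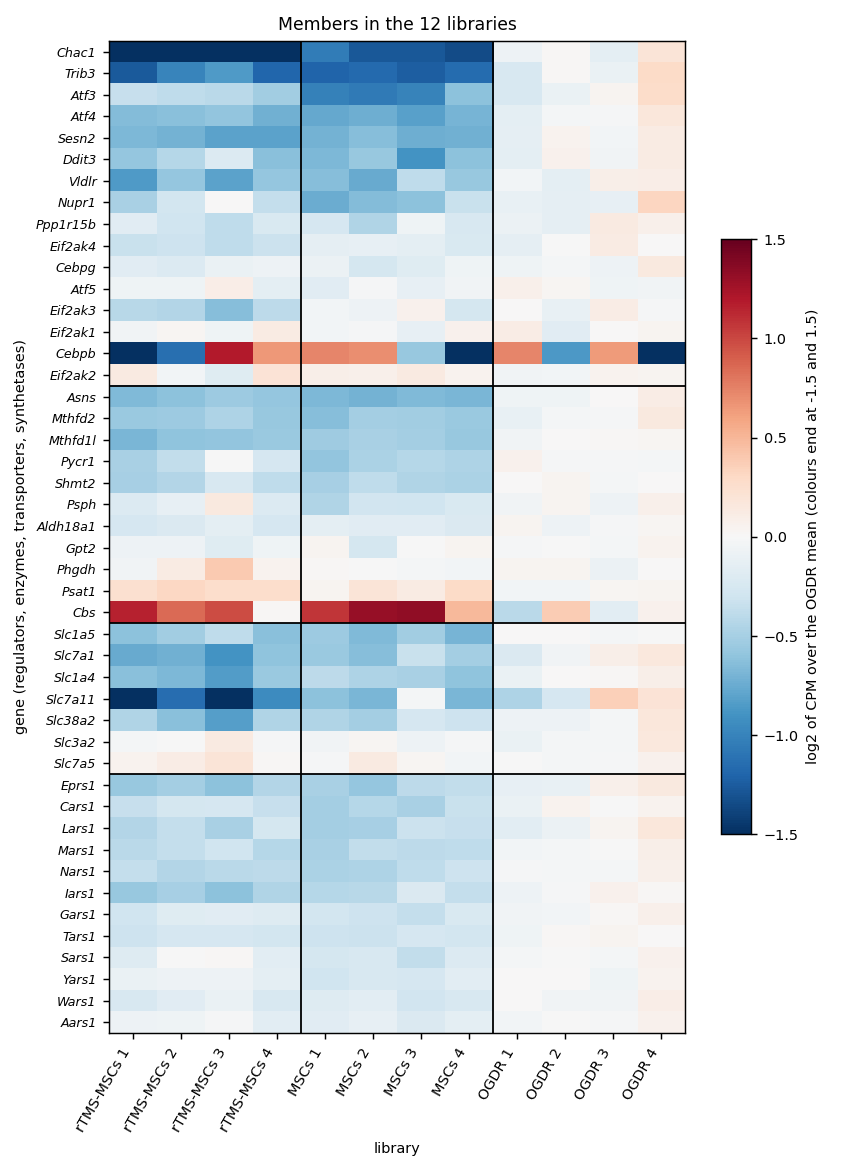
Log2 of each library's CPM over the OGDR mean for the 46 tested members (rows, in 4 classes) in the 12 libraries (columns). Blue fills the rTMS-MSCs and MSCs columns in most rows, the Cebpb row runs from blue to red within each group, and OGDR 4 is the reddest OGDR column.

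The members that hold the composite element were set beside those that do not. All 14 with a match to TGATGNAA fell in MSCs against OGDR, with a median of -0.425, while of 28 tested members with an entry and no match 14 fell and 2 rose, with a median of -0.246. Of 195 tested genes that are no members and hold TGATGNAA, 7.69% fell and 13.3% rose, against 8.96% and 12.5% of all 9730 tested genes with an entry. With the strict form TGATGCAA, 3 of 49 fell (6.12%) and 6 rose. Of the 14 members with a match 7 are synthetases, a class in which all 12 fell with or without a match. In rTMS-MSCs against OGDR the order of the medians depended on the form. With TGATGNAA 11 of 14 fell (median -0.337), and of 28 without it 15 fell and 1 rose (median -0.264). With TGATGCAA 9 of 12 fell (median -0.287), and of 30 without it 17 fell and 1 rose (median -0.363). These shares are descriptions with no test, and many of the members are known as ATF4 targets.

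Genes of the same pathways outside the members were counted on lists, here and in the next paragraph. Beside them, 8.63% of all tested genes fell and 11.6% rose in MSCs against OGDR. Of 11 further components of the cytosolic synthetase machinery, 6 fell and 1 rose in MSCs against OGDR, with a median of -0.176. Farsb, for phenylalanine, fell by 0.34 and Vars1, for valine, by 0.29, while Qars1, for glutamine, rose by 0.29 ± 0.0494. Of 14 mitochondrial synthetases 3 fell, Fars2, Wars2 and Sars2, and 0 rose, with a median of -0.079. The calls of Wars2 and Sars2 were each lost under 5 of 19 alternatives. Of 10 genes of eIF2, its exchange factor eIF2B and related initiation factors, 4 fell, among them Eif2b3 (-0.59 ± 0.0892), Eif2s2 (-0.39 ± 0.0603) and Eif2a (-0.33 ± 0.0939). The call of Eif2a was lost under 2 of 19 alternatives. Other genes tied to ATF4 were mixed, with 6 of 18 lower and 3 higher and a median of -0.147. Ddit4, an inhibitor of mTORC1 that also answers to glucocorticoids and low oxygen, rose by 1.27 ± 0.0595 and Ndrg1, a gene of low oxygen and differentiation, by 0.59 ± 0.0445. The DNA damage gene Gadd45a fell by 0.77.

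Of 17 other enzymes of amino acid metabolism, 6 rose and 0 fell, with a median of 0.122. Bcat1, which transaminates branched-chain amino acids, rose by 0.77 ± 0.0443, Glul, which makes glutamine, by 0.82 ± 0.0575, and Ass1, of arginine synthesis, by 0.51 ± 0.0605. Among 12 other serine and one-carbon genes 1 rose and 1, Shmt1, fell, with a median of 0.032. The call of Shmt1 was lost under 2 of 19 alternatives. Among 12 other amino acid transporters the taurine carrier Slc6a6 rose by 0.56 ± 0.064 and the lysosomal carrier Slc38a7 fell by 0.28, with a median of -0.029. The call of Slc38a7 was lost under 5 of 19 alternatives. Of 22 chaperones and sensors of the endoplasmic reticulum, 2 rose (Pdia3 and Creld2) and 0 fell, with a median of 0.036, and the chaperone Hspa5 did not pass (adjusted p = 0.285). The calls of Pdia3 and Creld2 were lost under 8 and 6 of 19 alternatives.

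**Figure D5:**
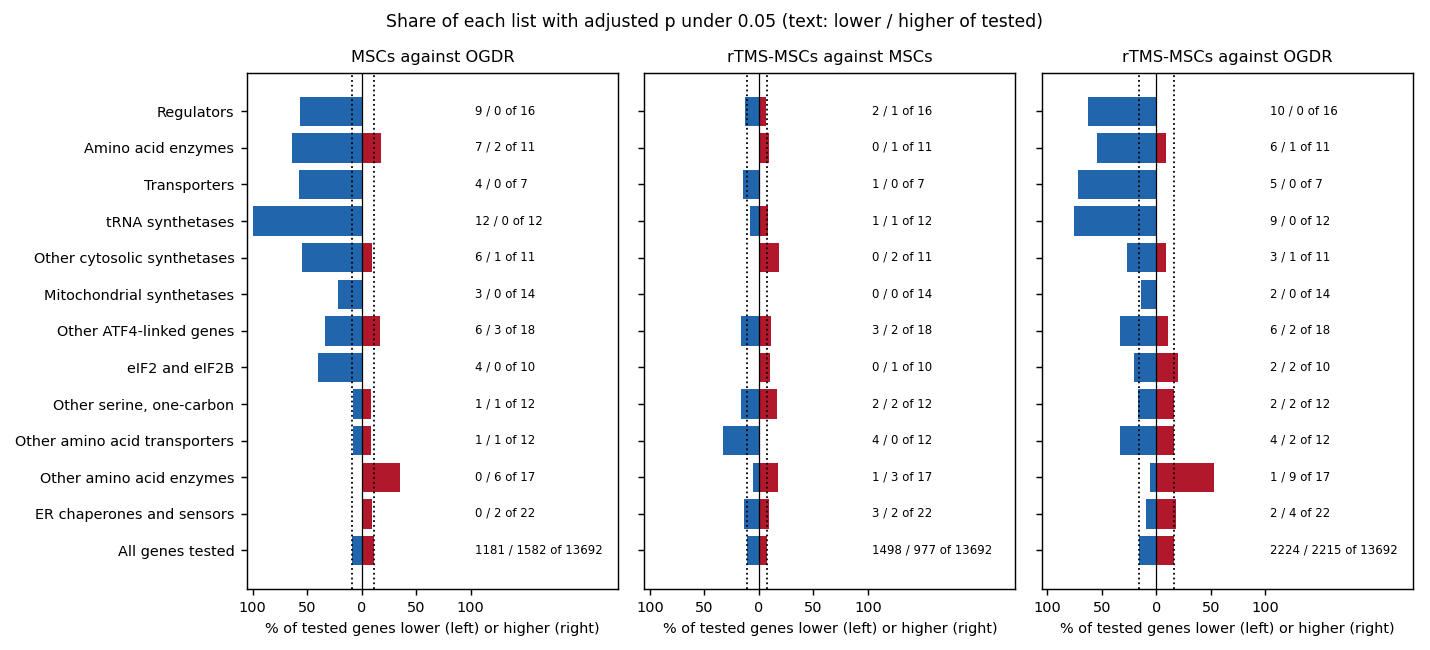
Share of the tested genes of each list that fell (left bars) or rose (right bars) at an adjusted p under 0.05 in the 3 comparisons, with numbers beside the bars and dotted lines at the shares over all 13692 tested genes. In MSCs against OGDR all 12 member synthetases fell, against 3 of 14 mitochondrial synthetases and 0 of 22 endoplasmic reticulum genes.

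Stimulation on top of the stem cells was the question of the next comparison, rTMS-MSCs against MSCs. Of the 46 members 3 rose and 4 fell, where 7.14% of all tested genes rose and 10.9% fell. That is 15.2% of the members, near the 18.1% of all tested genes that changed, and the median was 0.033 against 0.015 over all. With scaling to total counts 2 rose and 6 fell. Chac1 fell further, to 0.699 times its MSCs level (log2 fold change -0.52 ± 0.0979, adjusted p = 0.0025). Slc7a11 fell by 0.80 (standard error 0.192, adjusted p = 0.00843), and its rTMS-MSCs libraries, from 6.92 to 10.9 CPM, lay under all MSCs libraries. Eif2ak3, the kinase PERK of the endoplasmic reticulum, stood at 24.2, 23.9, 20.8 and 24.6 CPM in rTMS-MSCs, 31.5, 30.7, 33.9 and 26.9 CPM in MSCs and 32.5, 29.9, 34.9 and 31.8 CPM in OGDR. All 4 rTMS-MSCs libraries lay under the MSCs and OGDR ones, a change of -0.40 ± 0.0893 against MSCs (adjusted p = 0.00629).

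The other members that changed with stimulation were Atf3, Sars1, Psph and Iars1. Atf3 rose by 0.50 ± 0.144 (adjusted p = 0.0221), which left it under its OGDR level. Sars1, for serine, stood at 342, 388, 395 and 350 CPM in rTMS-MSCs, 324, 329, 303 and 339 CPM in MSCs and 383, 388, 381 and 409 CPM in OGDR, and rose by 0.19 ± 0.0559 (adjusted p = 0.0254). Psph rose by 0.22 ± 0.0769 (adjusted p = 0.049). Iars1, for isoleucine, stood at 153, 160, 147 and 165 CPM in rTMS-MSCs, 168, 169, 194 and 176 CPM in MSCs and 214, 223, 237 and 229 CPM in OGDR, and fell by 0.17 (adjusted p = 0.0448). In all 4 genes rTMS-MSCs and MSCs did not overlap, which held for 9 of the 46 members and for 19% of all tested genes. Atf4 did not pass (adjusted p = 0.188), nor did Ddit3 (adjusted p = 0.0781), Trib3 (adjusted p = 0.399) or Asns (adjusted p = 0.322). Slc7a1 came close (-0.23 ± 0.0812, adjusted p = 0.0516), as did Eif2ak4 (adjusted p = 0.0542), Yars1 (adjusted p = 0.0597) and Slc1a4 (adjusted p = 0.0639). In Eif2ak4 and Yars1 the groups did not overlap. In this order the genes passed under 7, 4, 3 and 2 of 19 alternatives.

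Several of these calls hung on single libraries. The count of 7 members became 3 without MSCs 1, without MSCs 3 or without rTMS-MSCs 2, 4 without rTMS-MSCs 3, 11 without MSCs 4 and 12 without rTMS-MSCs 4. With MSCs 3 and rTMS-MSCs 3 left out together, Chac1 alone passed, and all genes changed came to 677 in place of 2475. Slc7a11 then had adjusted p = 0.0705, Eif2ak3 0.0706 and Atf3 0.106. Atf3 also did not pass without MSCs 1, MSCs 2, MSCs 3 or rTMS-MSCs 2, nor Sars1 without MSCs 1, MSCs 3, rTMS-MSCs 2 or rTMS-MSCs 3. Psph failed in 13 and Iars1 in 12 of 19 alternatives, among them the removal of any 1 of 9 libraries each. Chac1 passed in all 19.

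On the lists outside the members 25 genes changed in rTMS-MSCs against MSCs, 12 higher and 13 lower, where 7.14% of all tested genes rose and 10.9% fell. Most of the calls on the lists hung on few libraries. Their number was 6 without MSCs 3, 9 without MSCs 1, 11 without rTMS-MSCs 2, 12 without rTMS-MSCs 3, and 4 with MSCs 3 and rTMS-MSCs 3 both left out. With scaling to total counts 4 rose and 13 fell. All libraries together gave 4 of 12 other amino acid transporters lower and 0 higher, among them Slc6a6 (-0.28 ± 0.0637) and the cationic carrier Slc7a2 (-0.95 ± 0.266). Without MSCs 3 Slc6a6 still passed (adjusted p = 0.0369) and Slc7a2 did not (adjusted p = 0.129). Of 12 other serine and one-carbon genes 2 rose and 2 fell, with the methionine synthase gene Mtr at -0.71 ± 0.158 (adjusted p = 0.0351 without MSCs 3). Of 22 endoplasmic reticulum genes 2 rose and 3 fell, with Sel1l, of protein disposal, at -0.38 ± 0.0802 and the sensor Atf6 at -0.40 ± 0.105. Sel1l passed under all 19 alternatives, while Atf6 did not pass without MSCs 3 (adjusted p = 0.0635). Other genes tied to ATF4 counted 2 higher and 3 lower of 18, and Ddit4 fell by 0.36, passing under all 19 alternatives. Other cytosolic synthetase genes counted 2 of 11 higher (Aimp1 and Kars1), eIF2 genes 1 of 10 higher (Eif2b3), other amino acid enzymes 3 of 17 higher and 1 lower (Gclc). Aimp1, Kars1, Eif2b3 and Gclc did not pass without MSCs 3, with adjusted p-values of 0.0795, 0.104, 0.0831 and 0.0926. Of 14 mitochondrial synthetases 0 passed in the edgeR test, with 1 at an unadjusted p under 0.05 and 1 called by DESeq2.

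The combined treatment was set against deprivation alone in rTMS-MSCs against OGDR, which shares its OGDR libraries with the first comparison and its rTMS-MSCs libraries with the previous one. Of the 46 members 31 changed (67.4%), against 32.4% of all tested genes. Of these 30 fell and 1 rose, where 16.2% of all tested genes fell and 16.2% rose. The median was -0.319, against 0.008 over all tested genes, again for members chosen with earlier results known. By class, 10 of 16 regulators, 6 of 11 enzymes, 5 of 7 transporters and 9 of 12 synthetases fell. The values of the groups did not overlap in 33 of the 46, against 30.3% of all tested genes. Chac1 was 0.298 times its OGDR level (log2 fold change -1.75 ± 0.0966, adjusted p = 2.33e-11), and Slc7a11 0.413 times (log2 fold change -1.28 ± 0.19, adjusted p = 3.39e-05). Trib3 stood at -1.07 ± 0.0976, Atf4 at -0.65 ± 0.0586 and Asns at -0.60 ± 0.0549, with adjusted p-values of 5.5e-08, 4.73e-08 and 5.5e-08.

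Eif2ak3 fell by 0.47 (adjusted p = 0.000475) and Eif2ak4, which senses uncharged tRNA, stood at 64.6, 65.8, 62.4 and 65.1 CPM in rTMS-MSCs, 74.2, 74.7, 73.8 and 69.7 CPM in MSCs and 74.3, 80.9, 89.1 and 81.8 CPM in OGDR. Eif2ak4 fell by 0.34 (adjusted p = 0.000408), with all rTMS-MSCs libraries under the others. Aars1, Sars1 and Yars1 did not pass (adjusted p = 0.193, 0.292 and 0.12), nor did Nupr1 (0.0939) or Psph (0.397). Psat1 rose by 0.27 ± 0.0538 (adjusted p = 0.000689), and here its groups did not overlap. Among the calls, Pycr1 did not pass without any 1 of 6 libraries (all 4 of OGDR, rTMS-MSCs 1 or rTMS-MSCs 2), Atf3 not without OGDR 3, OGDR 4 or rTMS-MSCs 4, and Ppp1r15b not without OGDR 3 or OGDR 4.

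On the lists outside the members, rTMS-MSCs against OGDR gave 3 of 11 other cytosolic synthetase genes lower and 1 higher, 2 of 14 mitochondrial synthetases lower, 6 of 18 other genes tied to ATF4 lower and 2 higher, and 2 of 10 eIF2 genes lower and 2 higher. Beside these lists and those below, 16.2% of all tested genes fell and 16.2% rose, and several lists lay near these shares. Other enzymes of amino acid metabolism counted 9 of 17 higher and 1 lower, with Bcat1 at 0.88 ± 0.0444 and Glul at 0.87 ± 0.0574. Of 22 endoplasmic reticulum genes 4 rose and 2 fell, and the sensors Ern1 and Atf6 were the ones that fell, at -1.15 ± 0.21 and -0.57 ± 0.104. Other serine and one-carbon genes counted 2 of 12 higher and 2 lower, and other amino acid transporters 2 of 12 higher and 4 lower. Some of these calls were fragile, with Gclc lost under 11 of 19 alternatives, Slc7a2 under 10, Syvn1 under 7 and Gclm under 6. Bcat1, Glul, Ern1 and Atf6 passed under all 19.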

How the data were processed

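Whole-number read counts per gene were deposited in 1 table of 30454 genes and 5 HTSeq summary lines for 12 libraries. HISAT2 2.1.0, HTSeq 0.11.2, DESeq2 1.40.1 and the build mRatBN7.2 are named in the submitters' processing notes. No source used here gives the strand setting, and reads of overlapping or antisense genes cannot be told apart. Reads in no gene were 51.73 to 52.71% of those counted per library and were left out, as were the other summary lines. Intervals and limits cover counting error only.

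Genes were filtered with filterByExpr (minimum count 10, minimum total 15) and tested with edgeR 4.0.16 in R 4.3.3 by the quasi-likelihood F test, with TMM scaling, all 12 libraries in 1 fit, and Benjamini-Hochberg adjustment over the 13692 tested genes. The standard error is the absolute log2 fold change over the square root of F. DESeq2 1.42.0, other scalings, no filter, a replicate block and libraries left out were the alternatives. The scripts were tested on simulated data. By the 26135 symbols of the table, 49 of 49 members and 179 of 180 other listed genes were found. Members and lists were chosen with earlier results of these data known. Nars2 stands on 2 lists.

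Values in every library are given for Atf4, Ddit3, Asns and Slc7a11, for the 6 regulators, 5 enzymes, 4 transporters and 4 synthetases with the smallest p in MSCs against OGDR, for the 2 of each class with the smallest p in rTMS-MSCs against MSCs, and for up to 3 of a class that went against most of it. Of each other list, up to 3 genes are named for MSCs against OGDR and up to 2 for rTMS-MSCs against MSCs, by smallest p among those that passed. Other named genes, Cebpb among them, were chosen after their values were seen. The labels give no pairing, so the replicate numbers were not taken as pairs in the main fit. Same-numbered libraries correlated at 0.0287 to 0.128 between MSCs and OGDR and at -0.205 to 0.0322 between rTMS-MSCs and MSCs. Every MSCs library correlated best with its own number in OGDR, while no rTMS-MSCs library did so in MSCs. The replicate block among the alternatives covers this. Promoters are RefSeq's, in build GRCr8, and no count was placed by them. A few genes and 1 promoter match are not reported here.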

Additional observations from a re-analysis of the deposited data

Results flagged for a closer look

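In 8 of 138 groups of 4 libraries, 1 library stood apart from the other 3 by Dixon's criterion at the 95% level, the gap to the nearest library over the range. Chance flags about 1 in 20 groups, which is near this share.

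Among regulators, Atf3 stood at 6.91 CPM in MSCs 4, against 5.08 to 5.31 in the other MSCs libraries. Nupr1 reached 43.9 CPM in OGDR 4, against 31.9 to 32.6 in the others. Eif2ak3 stood at 20.8 CPM in rTMS-MSCs 3, under 23.9 to 24.6 in the others. Eif2ak4 stood at 69.7 CPM in MSCs 4, under 73.8 to 74.7 in the others.

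Gpt2 was low in 1 library of each treated group, at 60.1 CPM in rTMS-MSCs 3 (others 64.7 to 65.1) and at 57 CPM in MSCs 2 (others 68.1 to 70.4). Slc7a11 stood at 20.6 CPM in MSCs 3, against 13.1 to 13.7 in the others. Nars1 stood at 425 CPM in OGDR 4, against 396 to 398 in the others.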

How the results depend on the processing

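Of the members called, 29 of 34 in MSCs against OGDR, 1 of 7 in rTMS-MSCs against MSCs and 28 of 31 in rTMS-MSCs against OGDR passed under all 19 alternatives, and none of the called changes turned its sign. Counts for MSCs against OGDR and rTMS-MSCs against OGDR stayed within 1.5 times under every alternative that kept all libraries or left out MSCs 3 and rTMS-MSCs 3. All counts that moved further concern rTMS-MSCs against MSCs, where the cause was not tested. Leaving out MSCs 3 and rTMS-MSCs 3 together gave 677 genes over the whole table in place of 2475, 1 member in place of 7 (1 regulator, 0 enzymes, 0 transporters and 0 synthetases) and 4 genes of the other lists in place of 25. With only the compared libraries in the fit there were 4 members, 0 enzymes, 0 synthetases and 16 genes of the other lists. Enzymes numbered 0 with total count scaling, and transporters 2 with total count scaling, 2 with DESeq2 and 3 without a filter. With the replicate block, where every MSCs library correlated best with its own number in OGDR, as a hint only, enzymes numbered 0 and synthetases 1, and the members changed were 5.

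Without 1 library at a time, MSCs against OGDR gave 2243 to 3451 all genes, 30 to 35 members, 8 to 10 regulators, 6 to 9 enzymes, 4 to 5 transporters, 11 to 12 synthetases and 27 to 39 genes of the other lists. Without 1 library at a time, rTMS-MSCs against MSCs gave 1006 to 3196 all genes, 3 to 12 members, 2 to 5 regulators, 0 to 3 enzymes, 1 to 4 transporters, 0 to 3 synthetases and 6 to 28 genes of the other lists. Without 1 library at a time, rTMS-MSCs against OGDR gave 3461 to 4683 all genes, 28 to 32 members, 8 to 11 regulators, 6 to 8 enzymes, 5 transporters each time, 9 synthetases each time and 38 to 50 genes of the other lists. At 18246250 counts or more per library, Cth and Slc7a3 had too few counts to test, and Ppp1r15a, listed at 0, was not tested.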

Other observations

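The C/EBP factor Cebpb ranked first of 9507 genes of at least 10 CPM by its spread within groups. Slc7a11 ranked 58 by the same measure, with a pooled SD of 0.34 log2 units, and 44 members were ranked. Libraries with the lowest Cebpb level were rTMS-MSCs 1 at 10.1 CPM, MSCs 4 at 9.46 CPM and OGDR 4 at 10.1 CPM.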
